A study of Oncorhynchus mykiss with 15 samples.

Results

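miR-122 is the miRNA that marks hepatocytes, and its rows were chosen by name: every row of the small RNA table named miR-122, whatever its species prefix, arm or end variant. The rule found 9 of 1213 rows. These hold 7 distinct sets of values over the 15 libraries, because some rows with different names carry the same measurement, and 5 of the 7 reached the mean of 10 over all libraries that testing required. The libraries came from liver of wild-type rainbow trout in 5 groups of 3: control fish, fish under hypoxia stress for 3 h, 12 h or 24 h, and fish given 3 h of reoxygenation. The sources used here do not give the age of the fish, the oxygen level, the length of hypoxia before reoxygenation, or whether a library is 1 fish or a pool. The p-values therefore measure the spread between these samples, which may be technical.

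A miRNA is cut from a hairpin precursor whose arms give a 5p and a 3p product. One arm is usually kept in the Argonaute protein and the other is mostly degraded. The bases at positions 2 to 8 from the 5′ end, the seed, pair with target messenger RNAs, so a form that starts 1 base earlier presents another seed. In mouse and human liver the kept arm is miR-122-5p, which is known for its control of lipid and cholesterol metabolism and for its restriction to hepatocytes.

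The 5 tested miR-122 forms are printed 5′ to 3′ as the deposited table gives them, in DNA letters with the seed in capitals, because the results turn on which end and which arm a row represents.
ssa-miR-122-5p_R-1: tGGAGTGTgacaatggtgttt
rno-miR-122-5p_L+1R-1: cTGGAGTGtgacaatggtgttt
fru-miR-122_L+2R-1: aATGGAGTgtgacaatggtgttt
ssa-miR-122-2-3p_R-1: aACGCCATtatcacactaaat
xla-mir-122-p3: aAACGCCAttatcacactaa
The species prefix is the database entry a row was matched to, not the organism of the sample. The row ssa-miR-122-5p_R-1 is the main 5p form, and xla-miR-122-5p repeats its sequence and its values. The next pair of rows holds all 21 bases of the main form behind 1 extra 5′ base (rno-miR-122-5p_L+1R-1) or 2 extra 5′ bases (fru-miR-122_L+2R-1), and both therefore have seeds other than GGAGTGT. The base just before the main form is C in rno-miR-122-5p_L+1R-1 and A in fru-miR-122_L+2R-1, so the longer form is not the shorter with 1 base added. Whether both come from the same hairpin cannot be told without a genome. The row ssa-miR-122-2-3p_R-1 is the 3p product, and xla-mir-122-p3 starts 1 base before it and shares a run of 19 bases with it. The name of the 3p product carries a hairpin number, which that of the main 5p form does not. Whether the main 5p form pools the products of more than 1 hairpin cannot be told without a genome.

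The remaining miR-122 rows were too low to test. The rows pbv-miR-122-5p_L+2R-1_1 and pbv-miR-122-5p_L+2R-1_2 have equal values, with a mean of 7.13 and a value of 0 in 7 of 15 libraries. The row rno-mir-122-p3_1ss20TA had a mean of 5.53 and was also at 0 in 7 libraries. Its name places it on the 3p side of a hairpin, but its sequence shares a run of 18 bases with the 5p form. Levels are given as the deposited values, which the authors had normalized and rounded. They are labelled TPM, but their column totals over distinct profiles ran from 2090585 to 6181106, so their scale is treated as unknown. The number of reads behind a value is unknown, so no counting interval can be given.

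In each of the 5 groups, library 1 stood apart from the other libraries. Over all tested rows, library 1 of reoxygenation was the farthest from its group: the SD of its log2 differences to the other libraries was 2.92 and 2.98, while those differed from each other by 1.48. Library 1 of 24 h hypoxia stood apart at 2.24 and 2.14 against 1.41, and control library 1 at 1.92 and 1.79 against 1.09. The distances were smaller for library 1 of 12 h hypoxia, at 1.43 and 1.47 against 1.07, and of 3 h hypoxia, at 1.46 and 1.40 against 1.20. What sets library 1 apart was not tested. The liver label was checked on other miRNAs abundant or enriched in hepatocytes: miR-192, miR-194, miR-148, miR-22 and miR-101. All of them were detected in every library, and together they made up 9.16% to 25.9% of the value outside miR-122. Markers of muscle reached at most 0.138% and neural and endocrine markers at most 0.149%, red blood cell markers 0.520%, white blood cell markers 0.432% and epithelial and bile duct markers 0.802%, while stromal markers made up 4.00% to 8.63%. Because these are bulk samples, fewer hepatocytes and less miR-122 per hepatocyte cannot be told apart.

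The main 5p form was highest and most even after 12 h of hypoxia. Its deposited values were 1386724, 834238 and 512308 in the control libraries. After 3 h of hypoxia they were 781362, 898129 and 473446, within or just below the control range. After 12 h they were 3213546, 3210124 and 3464852, all above every control and 3 h library. After 24 h they were 3647914, 1087693 and 708905, so library 1 held the highest value of the 15 and the other libraries lay within the control range. After reoxygenation they were 2733978, 703906 and 2228801, with library 2 inside the control range and the others above it.

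**Figure D1:**
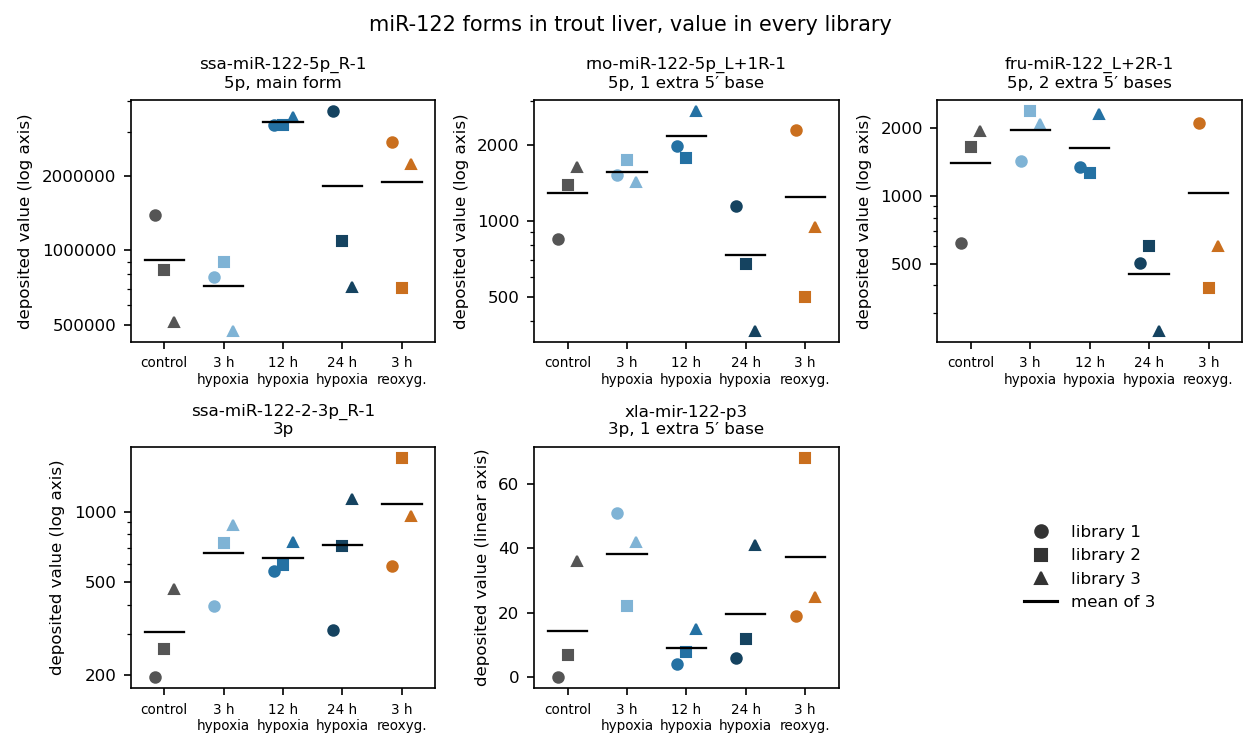
Deposited value of each tested miR-122 form in every library, by group (log axis for 4 forms, linear axis for xla-mir-122-p3, which is at 0 in 1 library). Points are libraries, with a circle, square or triangle for library 1, 2 or 3, and the black line is the mean of 3. The main 5p form lay between 3210124 and 3464852 in the 12 h libraries, while the forms with extra 5′ bases were lowest on average at 24 h.

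In order of group means the main 5p form ran from 717646 ± 219394 at 3 h (SD, n = 3) through 911090 ± 442245 in control, 1814837 ± 1598749 at 24 h and 1888895 ± 1056859 after reoxygenation to 3296174 ± 146089 at 12 h. Reoxygenation and 12 h were the only neighbours in this order whose libraries did not overlap. The 24 h and reoxygenation groups each held libraries from both ends of the range.

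Between 3 h and 12 h of hypoxia the main 5p form rose 4.76-fold, a difference of 2.25 ± 0.61 (SE) on the log2(value + 1) scale, with an adjusted p of 0.0253 (limma fit of all 5 groups, Benjamini-Hochberg over 752 rows). It was the only 1 of the 5 miR-122 forms called in this comparison, in which 16.8% of all rows were called (8.64% higher, 8.11% lower). The call rests on few libraries. It was lost when library 1 or 3 of 3 h hypoxia was left out (limma adjusted p = 0.0645 and 0.101) and when library 1, 2 or 3 of 12 h hypoxia was left out (0.0754, 0.0735 and 0.0625). Scaling every library to its own total kept the call but brought the log2 difference down to 0.99 (limma adjusted p = 0.0454). The main form makes up much of that total, and the value outside miR-122 was also higher at 12 h than at 3 h.

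Against control, the main 5p form was 3.92-fold higher at 12 h, with a log2 difference of 1.97 ± 0.61 (SE) and no overlap between the groups, but this did not pass the test (limma adjusted p = 0.0645). None of the 5 forms was called in this comparison, against 7.18% of all rows (5.19% higher, 1.99% lower). That background was 54 rows, and 18 to 162 in other settings. With library 1 left out of both 24 h hypoxia and reoxygenation, libraries that enter only the shared estimate of spread, the same difference passed (limma adjusted p = 0.0126). It also passed without library 1 of 24 h hypoxia (limma adjusted p = 0.0253) or library 1 or 2 of reoxygenation (0.0452 and 0.0422). Without control library 1, the highest control library, the difference was larger, at 2.33, and passed (limma adjusted p = 0.0435). With all libraries kept and scaled to the library total, the difference was 0.95 and did not pass (limma adjusted p = 0.0710). Differences from control in the other groups were smaller, at -0.28 (log2) for 3 h, 0.75 for 24 h and 0.95 for reoxygenation (limma adjusted p = 0.995, 0.557 and 0.464). The background of called rows was 0% at 3 h, 0.665% at 24 h (0.532% higher, 0.133% lower) and 2.13% after reoxygenation (1.46% higher, 0.665% lower). At 3 h, 13 rows had an unadjusted p under 0.05 in limma.

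From 12 h to 24 h the main form differed by -1.22 (limma adjusted p = 0.324), and from 24 h to reoxygenation by 0.20 (limma adjusted p = 0.974). In each of these comparisons 0% of rows were called, with 128 and 28 rows at an unadjusted p under 0.05 in limma. In other settings 0 to 97 rows were called from 12 h to 24 h. Library 1 of 24 h hypoxia held the highest main-form value of all libraries, so leaving it out lowers that group's mean. Leaving out that library and library 1 of reoxygenation took the 12 h to 24 h difference to -1.91 (limma adjusted p = 0.0400). Over the 5 groups together the moderated F was 4.18 (limma adjusted p = 0.106, against 6.38% of all rows called), and without those libraries it was 6.90 (0.0224), or 6.62 (0.0399) without library 1 of 24 h hypoxia alone. In the authors' deposited table, the p-value of the main form is 0.0348 and those of the other forms run from 0.0831 to 0.246, from a test that is not named there.

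**Figure D2:**
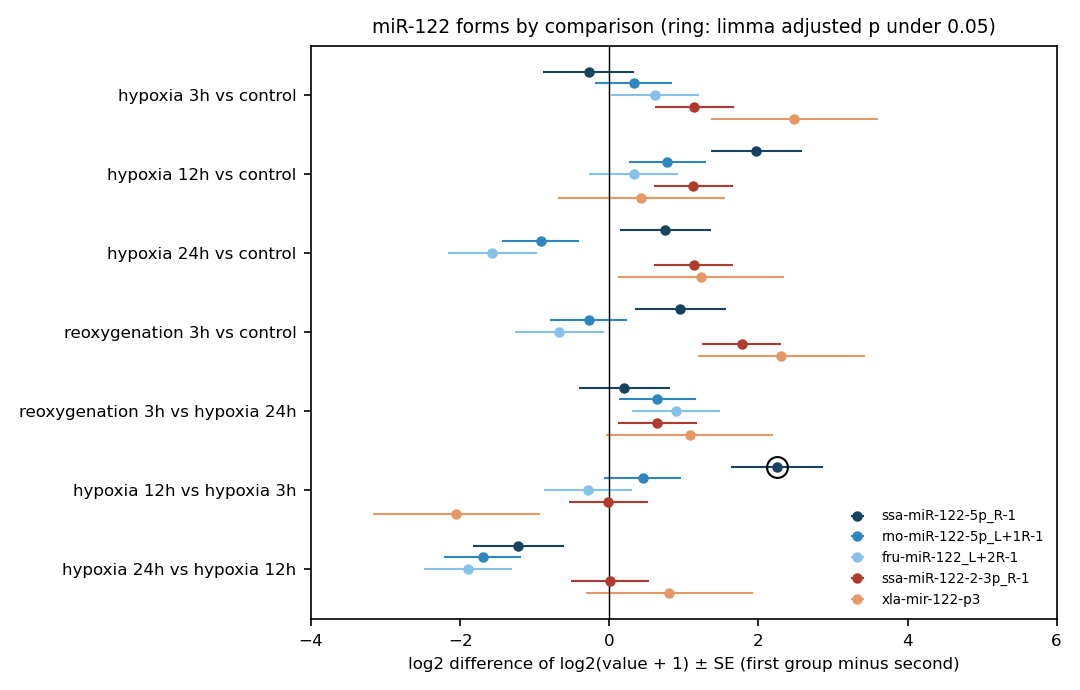
Log2 difference of each tested miR-122 form in the 7 comparisons, on the log2(value + 1) scale, with ± 1 SE from the limma fit. The rise of the main 5p form from 3 h to 12 h (2.25 ± 0.61) was the one call among them.

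The share of the library total taken by the 5 forms followed the main form, which made up 99.07% to 99.95% of the miR-122 value in each library. The share was 31.7%, 33.6% and 24.7% in the control libraries and 31.4%, 35.7% and 21.5% at 3 h. At 12 h it was 56.1%, 55.7% and 60.2%. The 24 h libraries had 59.0%, 35.7% and 25.2%, and the reoxygenation libraries 57.2%, 26.5% and 52.9%. The 12 h group had the smallest spread, at 57.3% ± 2.49 (SD, n = 3) against 29.99% ± 4.68 in control and 29.5% ± 7.26 at 3 h. At 12 h the 5 rows next in abundance over the series, ssa-miR-21b-5p, ssa-miR-22a-3p, ssa-miR-100a-5p_R-1, ssa-miR-30b-5p_R-1 and ssa-miR-462a-5p, took mean shares of 8.25%, 6.04%, 4.31%, 1.75% and 1.23%.

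The 12 h share exceeded the control share by 27.4 percentage points and the 3 h share by 27.8, without overlap. Each difference had a two-sided exact permutation p of 0.1, the smallest that 3 libraries against 3 can give (0.35 adjusted over the 7 comparisons). The other 5 comparisons gave exact permutation p from 0.3 to 0.9, and the exact permutation test over all 5 groups gave p = 0.0883 (0.132 adjusted over the 3 quantities tested this way). In the same exact permutation test p was 0.0210 when library 1 of 24 h hypoxia was left out and 0.0189 when library 2 of reoxygenation was. The value outside miR-122 was also high at 12 h, from 2293556 to 2553027, against 1626692 to 1740820 at 3 h and 1574195 to 2996977 in control. Scaled to that remainder, the main form was still higher at 12 h than at 3 h, by 1.72 on the log2 scale (limma adjusted p = 0.0360).

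**Figure D3:**
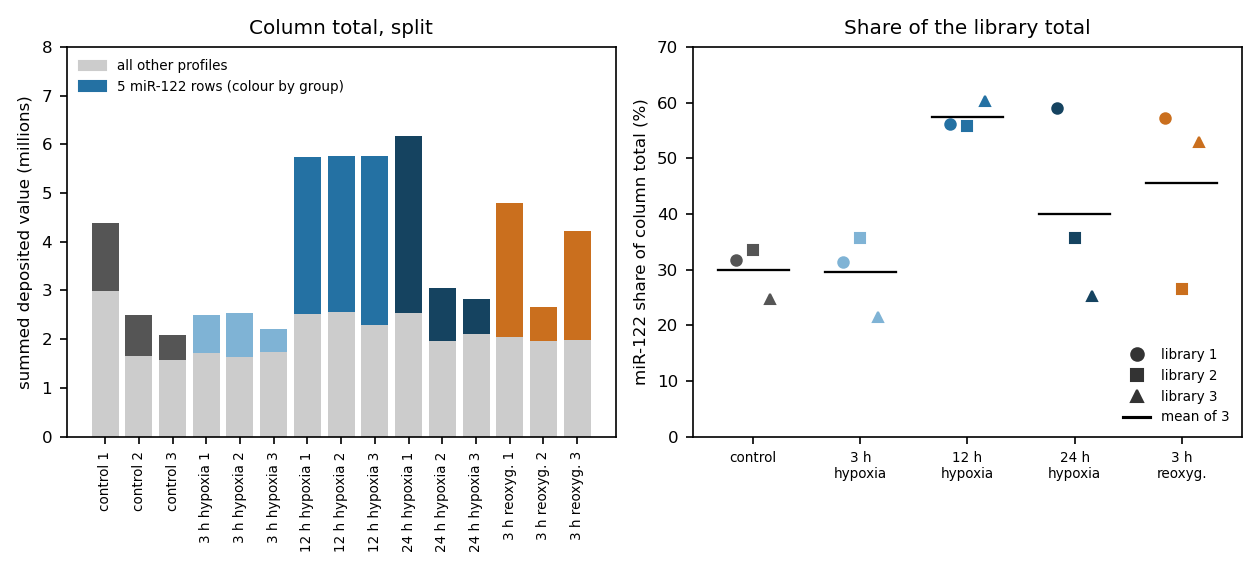
Column total of each library, split into the 5 miR-122 forms and all other profiles (bars), and share of the library total taken by the 5 miR-122 forms, in percent, for each library by group. Points are libraries and the black line is the mean of 3. The 12 h libraries lie between 55.7% and 60.2%, and the 24 h and reoxygenation groups each hold libraries both near this level and near the control level.

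Marker lists of other cells differed in direction. miR-126, a miRNA of endothelial cells and the one marker on that list, made up 1.64% to 1.92% of the value outside miR-122 at 12 h, against 0.305% to 0.608% in control and 0.366% to 0.496% at 3 h. It ranged from 0.539% to 1.49% at 24 h and from 0.526% to 2.84% after reoxygenation, and was high in the same libraries as miR-122. The summed muscle markers, at 0.0596% to 0.138% at 12 h against 0.0221% to 0.0429% at 3 h, were also higher. Most of this sum at 12 h was miR-499, whose own sum ran from 252 to 3456 over the libraries. The highest sums of miR-1, miR-133 and miR-206 were far lower. The muscle values at 12 h therefore describe mainly miR-499, and whether the other muscle miRNAs rose was not tested. White blood cell markers lay lower at 12 h than at 3 h, at 0.127% to 0.208% against 0.292% to 0.432%, as did stromal markers, at 4.00% to 5.20% against 5.53% to 8.11%, and neural and endocrine markers, at 0.0393% to 0.0508% against 0.0576% to 0.0887%. In control, white blood cell markers made up 0.133% to 0.339% and stromal markers 4.22% to 8.63%, both overlapping the 12 h values. Neural and endocrine markers made up 0.0545% to 0.0779% in control. Red blood cell and epithelial markers overlapped between 3 h and 12 h. Separate ranges were common in this comparison. By deposited value, 20.7% of all tested rows lay higher at 12 h than at 3 h without overlap, and 30.1% lay lower. The 5 other hepatocyte miRNAs together made up 10.9% to 17.4% in control and 9.16% to 13.3% at 3 h, then 19.2% to 20.96% at 12 h, 16.5% to 25.9% at 24 h and 16.3% to 24.01% after reoxygenation. Most of this sum was miR-22. Without it, a split made after its values were seen, the other 4 made up 3.63% to 4.61% in control and 2.94% to 4.36% at 3 h, then 5.19% to 5.93% at 12 h, and were at 5.96%, 2.98% and 3.21% in the 24 h libraries, of which libraries 2 and 3 lay below every control library. After reoxygenation they made up 3.97% to 5.70%. The part of cell composition in the miR-122 values was not tested.

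The forms with extra 5′ bases had their own patterns. Both were lowest on average at 24 h, and the one with 1 extra base was, like the main form, highest at 12 h. The form with 1 extra base, rno-miR-122-5p_L+1R-1, had values of 849, 1383 and 1632 in control, 1524, 1748 and 1422 at 3 h and 1990, 1784 and 2723 at 12 h. At 24 h they were 1148, 675 and 366, and reoxygenation library 1 had 2292 and library 3 had 946, with library 2 the lowest of that group, whose mean was 1246 ± 933 (SD, n = 3). All its 12 h libraries lay above the control, 3 h and 24 h libraries, but no comparison passed. The 12 h to control difference was 0.78 (limma adjusted p = 0.337) and the 24 h to 12 h difference was -1.70 (limma adjusted p = 0.146). The latter passed at -2.10 without library 1 of 24 h hypoxia (limma adjusted p = 0.0473). That library held the form's highest value at 24 h, so leaving it out lowers that group's mean.

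The form with 2 extra bases, fru-miR-122_L+2R-1, had values of 620, 1641 and 1946 in control, 1429, 2378 and 2096 at 3 h and 1349, 1265 and 2300 at 12 h. At 24 h they were 504, 598 and 251, below every control, 3 h and 12 h library. After reoxygenation they were 2107, 388 and 599, so library 1 was back at the earlier level and the others were not. The 24 h to control difference was -1.57 (limma adjusted p = 0.216) and the 24 h to 12 h difference was -1.90 (limma adjusted p = 0.146), neither past the test. Over the 5 groups its moderated F had a limma adjusted p of 0.106, and 0.0178 without library 1 of reoxygenation. That library held the form's highest value after reoxygenation, so leaving it out lowers that group's mean.

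Set against the main form, the forms with extra 5′ bases differed between the groups. Their sum per 10000 of the main form was 10.6, 36.2 and 69.8 in control and 37.8, 45.9 and 74.3 at 3 h. At 12 h it was 10.4, 9.50 and 14.5, at 24 h 4.53, 11.7 and 8.70, and after reoxygenation 16.1, 12.6 and 6.93. The 9 libraries of these later groups all lay below the 3 h libraries and below control libraries 2 and 3, while control library 1 lay among them.

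The exact permutation test of the log2 ratio over the 5 groups gave F = 6.13 and p = 0.0148 (0.0444 adjusted over the 3 quantities tested this way), and with any 1 library left out the unadjusted exact permutation p ran from 0.00162 to 0.0430. Adjusted in the same way, it stayed under 0.05 for 6 of the 15 left-out libraries. It did not, at 0.0508 to 0.129, without any 1 library of 3 h or 12 h hypoxia, control library 2, library 3 of 24 h hypoxia or library 3 of reoxygenation. From 3 h to 12 h the log2 ratio differed by -2.16, without overlap between the groups (exact permutation p = 0.1, the smallest possible, and 0.4 adjusted over 7 comparisons). The log2 ratio differed from control by -1.41 at 12 h, by -1.95 at 24 h and by -1.42 after reoxygenation, with overlap through control library 1 (exact permutation p = 0.2, 0.2 and 0.3). Every library with a main form of 1087693 or more had a ratio of at most 16.1 per 10000. In control the ratio fell as the main form rose, from 69.8 at 512308 through 36.2 at 834238 to 10.6 at 1386724. Low ratios at a lower main form were seen in library 3 of 24 h hypoxia, with 708905 and 8.70, and library 2 of reoxygenation, with 703906 and 12.6. How far the ratio follows the main form was not tested.

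**Figure D4:**
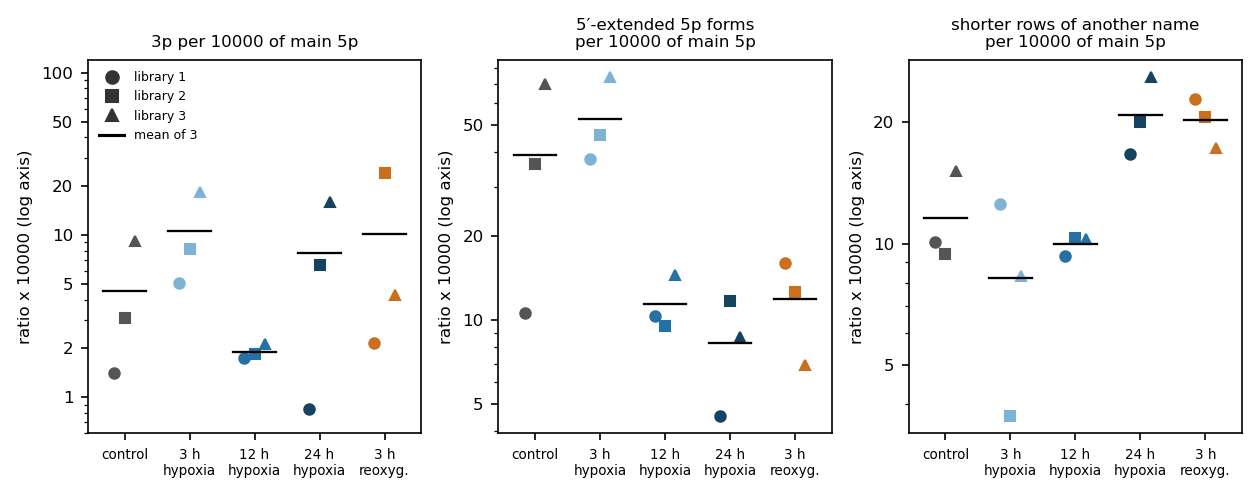
The 3p product, forms with extra 5′ bases, and shorter rows of another name that start with the miR-122-5p sequence. Each is given per 10000 of the main 5p form (log axes), for every library by group. Points are libraries and the black line is the mean of 3. The 5′-extended forms lie between 37.8 and 74.3 at 3 h and between 4.53 and 16.1 at 12 h, 24 h and reoxygenation, while the 3p product spreads widely within most groups and narrowly, from 1.74 to 2.14, at 12 h.

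The 3p product, from the arm that is mostly discarded in mammalian liver, was rare. The row ssa-miR-122-2-3p_R-1 had values of 196, 258 and 468 in control and 394, 735 and 877 at 3 h. At 12 h it had 559, 594 and 743, at 24 h 311, 711 and 1135, and after reoxygenation 588, 1700 and 958. The control libraries lay below every 12 h and every reoxygenation library, yet no comparison passed the test. The difference from control was largest after reoxygenation, at 1.78 (limma adjusted p = 0.113), and was 1.14, 1.12 and 1.13 at 3 h, 12 h and 24 h (limma adjusted p = 0.995, 0.188 and 0.369). Without library 1 of reoxygenation, the difference of the reoxygenation group from control was 2.15 and passed (limma adjusted p = 0.0306, or 0.0111 with library 1 of 24 h hypoxia left out too). Library 1 of reoxygenation held the lowest 3p value of its group, so leaving it out raises that group's mean.

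Per 10000 of the main 5p form, the 3p product stood at 1.41, 3.09 and 9.14 in control, 5.04, 8.18 and 18.5 at 3 h and 1.74, 1.85 and 2.14 at 12 h. At 24 h it stood at 0.853, 6.54 and 16.0 and after reoxygenation at 2.15, 24.2 and 4.30. The log2 ratio at 12 h differed from that at 3 h by -2.26, without overlap (exact permutation p = 0.1, 0.7 adjusted over 7 comparisons). Over the 5 groups the ratio did not pass (F = 1.03, exact permutation p = 0.435). The second 3p row, xla-mir-122-p3, had values from 0 to 68. It had 51, 22 and 42 at 3 h against 4, 8 and 15 at 12 h, which did not overlap, but the difference of -2.05 did not pass (limma adjusted p = 0.213, or 0.0381 in a fit of these groups alone).

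Counted over the 5 tested forms, groups did not overlap for 3 higher forms at 12 h against control (16.9% of all rows higher, 23.8% lower) and for 1 lower form at 24 h against control (5.85% and 9.84%). After reoxygenation 1 form was higher than control without overlap (7.18% and 9.04%). From 3 h to 12 h 2 forms were higher and 1 was lower (20.7% and 30.1%), and from 12 h to 24 h 2 were lower (11.7% and 14.2%). No form was without overlap at 3 h against control (1.86% and 3.99%) or between 24 h and reoxygenation (2.26% and 2.79%).

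Across the 15 libraries the forms fell into pairs by their kind of sequence, as a description with no test. The rows with 1 and 2 extra 5′ bases had a Pearson r of 0.91 on the log2(value + 1) scale and the 3p rows 0.72. The main 5p form had r of 0.42 and 0.03 with the 5′-extended forms and -0.18 and -0.51 with the 3p rows. All of these share library scaling; relative to the total outside miR-122, the r within each pair was 0.94 and 0.83.

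Rows with other names also carry the miR-122-5p sequence. Of 9 such rows with a shared run of at least 12 bases, 6 start with at least 15 bases of the main form and end in other bases, and all 6 are named as forms of miR-10014-5p. The 3 most abundant are printed with the bases shared with the start of the main form in capitals, because their identity with miR-122-5p up to the tail is what makes their values relevant.
pal-miR-10014-5p_1ss17AT: TGGAGTGTGACAATGGTaa
pal-miR-10014-5p: TGGAGTGTGACAATGGaaa
pal-miR-10014-5p_R+1: TGGAGTGTGACAATGGaaaa
They share the seed of miR-122-5p, which 11 rows carry in all, 9 of them with names other than miR-122. Whether these rows come from miR-122 or from another locus cannot be told apart without a genome.

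The 3 rows rose from 3 h to 12 h, as the main form did. Their log2 differences were 2.88 for pal-miR-10014-5p_1ss17AT, 2.44 for pal-miR-10014-5p and 2.62 for pal-miR-10014-5p_R+1 (limma adjusted p = 0.0123, 0.0129 and 0.0109). In this comparison 8.64% of all rows were called higher and 8.11% lower. The other tested rows with a shared run, all low, did not pass (limma adjusted p from 0.108 to 0.429). At 12 h against control pal-miR-10014-5p_R+1 passed, at 2.00 (limma adjusted p = 0.0402), and the other abundant rows did not (0.0864 and 0.0994). Over all 6 rows named as miR-10014-5p the sum per 10000 of the main form was 10.1, 9.41 and 15.2 in control, 12.6, 3.72 and 8.30 at 3 h and 9.33, 10.3 and 10.3 at 12 h. At 24 h it was 16.7, 20.1 and 26.0 and after reoxygenation 22.9, 20.7 and 17.3. All 6 libraries of 24 h hypoxia and reoxygenation lay above all 9 others, an ordering that was seen in the values and was not tested.

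The miRNAs most like the main 5p form were found by Pearson r on the log2(value + 1) scale over the 15 libraries, among 621 other profiles. The highest were ssa-miR-126-3p, the endothelial miRNA, at 0.94, ssa-let-7e-5p at 0.93, ssa-let-7g-5p at 0.91, and the hepatocyte miRNAs ola-miR-194-5p_R+4 and ssa-miR-192a-5p_R+1, each at 0.89. The level of ssa-miR-126-3p was 6657 ± 802 in the 3 h group and 9523 ± 7019 in control, was 41255 ± 4217 in the 12 h group, and averaged 18841 ± 14926 in the 24 h group and 29012 ± 23938 in the reoxygenation group (SD, n = 3 each). The lowest were ola-miR-731_L+1R+5 at -0.96, ssa-let-7h-3p_1ss4TG at -0.93, ssa-miR-181a-5p at -0.92, ssa-miR-101a-5p_R-1 at -0.91 and ssa-miR-24b-3p at -0.90. Rows of miRNAs on the hepatocyte marker list thus stood at both ends. miR-101, of which ssa-miR-101a-5p_R-1 is a 5p row, is on that list with miR-192 and miR-194. This 5p row averaged 488 at 3 h and 204 at 12 h, while the 3p row ssa-miR-101a-3p averaged 164 and 2181. The row ola-miR-731_L+1R+5 was at 0 in all 12 h libraries and at 37.7 ± 26.6 at 3 h.

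The libraries fall into separate sets on the main form, 9 from 473446 to 1386724 and 6 from 2228801 to 3647914, and the r over all 15 includes the gap between them. Within the 6 higher libraries the 5 most like profiles had r from 0.40 to 0.76. Within the 9 lower libraries their r was 0.62 for ssa-miR-126-3p, 0.71 for ssa-let-7e-5p, 0.60 for ssa-let-7g-5p, 0.80 for ola-miR-194-5p_R+4 and 0.56 for ssa-miR-192a-5p_R+1. For the least like profiles it was -0.77 for ola-miR-731_L+1R+5, -0.43 for ssa-let-7h-3p_1ss4TG, -0.60 for ssa-miR-181a-5p, -0.45 for ssa-miR-101a-5p_R-1 and -0.64 for ssa-miR-24b-3p. In the 6 higher libraries ola-miR-731_L+1R+5 was at 0 throughout and has no r, and the others had r from -0.81 to -0.33. These coefficients are descriptions, since the libraries share their scaling and total.

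Other miRNAs known from liver (miR-192, miR-194, miR-215, miR-148, miR-152, miR-22, miR-101, miR-30, miR-193, miR-365, miR-455, miR-21, miR-103, miR-107 and miR-27) had 89 tested profiles. From 3 h to 12 h, 11 were higher and 1 was lower, 13.5% of the list against 15.9% of all 622 profiles (55 higher and 44 lower). The list's median log2 difference was 0.23 against -0.28 over all profiles, and it turned to -0.26 against -0.81 when libraries were scaled to the total outside miR-122. With that scaling 8 were higher and 4 lower, 13.5% of the list against 18.2% of all profiles (33 higher and 80 lower). A correction for GC content left 9 higher and 0 lower, 10.1% of the list against 11.4% of all profiles (47 higher and 24 lower). Among the most abundant, ssa-miR-21b-5p rose by 1.33 ± 0.40 (SE) and ssa-miR-22a-3p by 1.47 ± 0.44 (limma adjusted p = 0.0367 and 0.0349). Both were no longer called when scaled to the total outside miR-122 (limma adjusted p = 0.0980 and 0.0506). ssa-miR-148a-3p_R-1 and ssa-miR-21a-5p_R-3 had differences of 1.27 and 1.26 that did not pass (limma adjusted p = 0.0746 and 0.0787), and ssa-miR-30b-5p_R-1 one of -0.09 (0.903).

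Most of the called list members were forms of miR-101-3p and miR-152. ssa-miR-101b-3p_R+1 went from 343 ± 104 at 3 h to 6126 ± 1553 at 12 h (log2 difference 4.17, limma adjusted p = 2.3e-04), and ssa-miR-101a-3p from 164 ± 31.8 to 2181 ± 227 (3.74, limma adjusted p = 6.5e-04). ssa-miR-152-3p rose from 4861 ± 1158 to 61191 ± 5397 (3.68, limma adjusted p = 9.9e-04). ssa-miR-152-5p_L-1 rose by 1.52 (limma adjusted p = 0.0367), and was not called after the GC correction (0.133) or when scaled to the total outside miR-122 (0.125). The member that fell was ssa-miR-22b-3p, by 1.04 on the log2 scale (limma adjusted p = 0.0412). Against control, 3 list members were higher and 1 lower at 12 h, 1 was higher at 24 h and 2 were higher after reoxygenation. These are 4.49%, 1.12% and 2.25% of the list, against 7.07%, 0.804% and 2.41% of all 622 profiles, shares near the background. The lower one, aca-miR-193-5p_R+1, was listed at 0 in all 12 h libraries against 70.7 ± 30.6 in control (limma adjusted p = 0.0476, or 0.162 after the GC correction). ssa-miR-101b-3p_R+1 was higher than control in all 3 of these, by 3.64, 2.91 and 4.00 (limma adjusted p = 0.00124, 0.00833 and 3.9e-04).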

How the data were processed

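Small RNA was sequenced from total RNA extracted with Trizol from flash-frozen liver and made into libraries with an Illumina protocol, per the labels' protocols. The deposited values are labelled TPM but are treated as a score, since the authors normalized and rounded them and their column totals vary widely. A deposited p-value per row, whose test the authors do not name, is quoted only for miR-122. For the aligner, annotation and build: not given in the sources used here. Sequencing depth is unknown. Without a genome, rows have no coordinates.

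Groups came from the sample labels. Rows with a mean of at least 10 (752 rows, 622 profiles) were fitted as log2(value + 1), which shrinks the changes of low rows, with limma 3.58.1 in R 4.3.3 (trended variance, all 5 groups in 1 fit) and adjusted by Benjamini-Hochberg over all tested rows within each of 7 comparisons, at a threshold of 0.05. Shares and log2 ratios, computed over distinct profiles, were tested by two-sided exact permutation over libraries (20 arrangements for 3 against 3, 1401400 for 5 groups). The fit was tested on simulated data. Named are the 5 tested miR-122 forms, the 5 profiles most and the 5 least like the main form, the 5 rows next to it in abundance, the 5 most abundant other liver miRNAs and the list members called, of which ssa-named rows are given singly; rows sharing the miR-122-5p start were added after their values were seen. The members and lists were chosen with earlier results of these data known. Alternatives were other pseudocounts, filters, scalings, a GC correction (lowess, span 0.5), fits on the compared groups alone, a replicate block and each library left out. Library 1 of 24 h hypoxia and of reoxygenation were also left out together.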

Additional observations from a re-analysis of the deposited data

How the results depend on the processing

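The values have no known depth, 3 libraries a group limit every test, and the scale of the values is unknown. The rise of the main 5p form from 3 h to 12 h passed in 26 of 31 alternatives. It passed in 10 of the 15 that left out a single library, and each loss followed leaving out a library of 3 h or 12 h hypoxia. The main 5p form rose by 1.98 to 2.44 on the log2 scale as libraries were left out in turn, and by 0.99 to 2.28 in the other settings. Its difference from control at 12 h passed in 7 of 31: it stayed 1.97 with limma adjusted p of 0.0204 in a fit of the compared groups alone, 0.0336 with a replicate block and 0.0126 without library 1 of 24 h hypoxia and of reoxygenation, and ran from 1.61 to 2.33 with libraries left out. It was 0.95 (0.0710) scaled to the library total, 1.67 (0.0877) scaled to the total outside miR-122 and 1.70 (0.140) with the GC correction. Without those libraries the 12 h to 24 h difference was -1.91 (-1.91 to -0.73 with single libraries left out) and the F over 5 groups 6.90 (3.05 to 6.62). With single libraries left out, the main form ran from -0.63 to 0.083 at 3 h against control and from -0.29 to 0.89 between 24 h and reoxygenation.

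The sources used here do not say whether the replicate numbers pair the libraries. Libraries of different groups were compared after each row's group mean was subtracted from its log2(value + 1). What was left correlated between same-numbered libraries with a median r of 0.022 (-0.298 to 0.530 over 30 pairs). Of the 15 libraries, 4 correlated best with a library of their own number, which can also happen without pairing. An r over 0.1 was found in 11 of these 30 pairs, against 17 of 60 pairs of different number. Values this varied cannot settle whether libraries of the same number share an effect, and library 1 stood apart in every group. The block also brought the 3p product after reoxygenation past the threshold (1.78, limma adjusted p = 0.0261).

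The share at 3 h against control turned to 0.19 percentage points with the total over all rows and ran from -3.52 to 3.56 with libraries left out; between 24 h and reoxygenation it ran from -1.85 to 15.1, and the F over 5 groups from 2.10 to 5.70. The log2 3p to 5p ratio ran from -0.54 to 1.58 at 24 h against control, from -0.17 to 1.57 after reoxygenation against control and from -0.75 to 1.36 between 24 h and reoxygenation, where it was -0.0064 without library 1 of each. The 5′-extended ratio there was -0.11 without library 1 of each; its unadjusted p over 5 groups was under 0.05 in 16 of 16 alternatives, and its p adjusted over the 3 quantities in 6 of the 15 that left out a library.

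Of 988 values recomputed for the other forms, 25 reversed and 11 passed only in an alternative; none of these differences had passed before. Scaled to the library total, rno-miR-122-5p_L+1R-1 turned to -0.24 at 12 h against control and -0.80 against 3 h, fru-miR-122_L+2R-1 to -0.69 and xla-mir-122-p3 to -0.56 against control. Scaled to the total outside miR-122, rno-miR-122-5p_L+1R-1 turned to -0.084 against 3 h and xla-mir-122-p3 to -0.0086 against control. With the GC correction, with or without the replicate block, fru-miR-122_L+2R-1 was -0.25 and xla-mir-122-p3 -0.46, and with a pseudocount of 10 the latter was -0.10. ssa-miR-122-2-3p_R-1 turned to 0.017 from 3 h to 12 h under median-of-ratios scaling and to -0.13 from 12 h to 24 h under quantile normalization. With libraries left out, fru-miR-122_L+2R-1 ran from -0.18 to 0.64 and xla-mir-122-p3 from -0.94 to 1.66 at 12 h against control, xla-mir-122-p3 from -0.14 to 2.47 at 24 h, rno-miR-122-5p_L+1R-1 from -0.85 to 0.25 after reoxygenation, and ssa-miR-122-2-3p_R-1 from -0.36 to 0.22 and from -0.41 to 0.52. The liver list's median turned to -0.17 at 12 h against control and -0.26 against 3 h when scaled to the total outside miR-122, and to 0.042 at 24 h with the GC correction. The causes were not tested.

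Rows called at 12 h against control (54) ranged from 18 to 162 over other settings and from 4 to 109 with libraries left out, at 24 h (5) from 3 to 51 and 0 to 30, after reoxygenation (16) from 0 to 76 and 4 to 56, from 3 h to 12 h (16.8% of 752 rows) from 80 to 267 and 7 to 172, and from 12 h to 24 h (0) from 0 to 97 and 0 to 36. Quantile normalization gives the main form, the highest row of every library, 1 value by construction and was not used for it.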
